A study of Mus musculus with 14 samples.

Results

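Collagens are the fibrous and sheet-forming proteins of the extracellular matrix, and their transcripts were followed here in the mouse cerebral cortex after cerebral venous sinus thrombosis (CVST), a blockage of the large venous channels of the brain by clotted blood. Members were all rows of the count table whose symbol is a collagen chain (Col, a type number, the letter a, a chain number). There were 44 of them among 55359 Ensembl genes, and all 44 were among the 16918 genes with enough reads to be tested. They comprise 11 fibrillar collagens, 6 chains of type IV (Col4a, the collagen of basement membranes) and 27 chains of other types. RNA came from cortex of both hemispheres in 14 libraries: 5 taken 7 d after CVST (CVST-7d), 5 taken 2 d after CVST (CVST-2d) and 4 from sham mice. All groups share the tissue, the housing and the library kit. The labels give neither the strain, sex or age of the mice nor the time at which sham tissue was taken, and they number the samples without saying that each is a separate animal, so p-values measure only the spread between these samples.

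Collagen chains wind into a triple helix. Fibrillar collagens (types I, II, III, V, XI, XXIV and XXVII) assemble into tensile fibrils. Types I and III among them are made mainly by fibroblasts, which in a healthy brain lie in the meninges and around larger vessels. Type IV chains form the network of basement membranes, including that beneath the endothelium of brain capillaries. The other types decorate fibrils, form beaded filaments or short-chain networks, or span the cell membrane. In bulk tissue, more cells of a type and more RNA per cell cannot be told apart.

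The type IV genes Col4a1 and Col4a2 lie head to head and are transcribed away from each other. Their RefSeq start sites on GRCm38.p6 are 21 bases apart, and their promoter windows, 250 bases before to 50 after each start, overlap by 78 bases. The windows below are those of this pair and of 4 fibrillar genes on which the comparisons turn, with the 300 bases written 5′ to 3′ on the gene's strand. Capitals mark 3 kinds of letters, searched on both strands. They are the TATA box, spelled TATAAA, the CCAAT box, spelled as it is named, and the GC box. The letters of the GC box were GGGCGG. The windows are chr8:11312777-11313076 on the minus strand for Col4a1, chr8:11312555-11312854 on the plus strand for Col4a2, chr6:4505368-4505667 plus for Col1a2, chr1:45311288-45311587 plus for Col3a1, chr9:20815018-20815317 minus for Col5a3 and chr17:34038888-34039187 plus for Col11a2.
Col4a1: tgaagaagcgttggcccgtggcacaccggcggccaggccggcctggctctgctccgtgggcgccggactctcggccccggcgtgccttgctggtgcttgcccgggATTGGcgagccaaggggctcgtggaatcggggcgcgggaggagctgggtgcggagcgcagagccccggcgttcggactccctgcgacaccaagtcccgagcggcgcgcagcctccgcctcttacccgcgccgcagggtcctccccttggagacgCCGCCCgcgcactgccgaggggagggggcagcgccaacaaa
Col4a2: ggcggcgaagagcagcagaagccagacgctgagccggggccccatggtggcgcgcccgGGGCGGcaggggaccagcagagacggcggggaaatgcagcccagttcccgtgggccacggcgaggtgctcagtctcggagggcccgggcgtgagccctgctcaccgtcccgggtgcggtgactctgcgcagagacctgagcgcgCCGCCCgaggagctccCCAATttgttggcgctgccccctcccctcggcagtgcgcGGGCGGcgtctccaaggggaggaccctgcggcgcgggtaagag
Col1a2: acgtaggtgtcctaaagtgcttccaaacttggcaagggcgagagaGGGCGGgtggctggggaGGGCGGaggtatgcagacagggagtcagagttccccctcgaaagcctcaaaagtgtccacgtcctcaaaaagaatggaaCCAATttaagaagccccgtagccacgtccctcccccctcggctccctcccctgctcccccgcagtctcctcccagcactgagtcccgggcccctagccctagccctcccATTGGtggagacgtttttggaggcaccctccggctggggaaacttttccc
Col3a1: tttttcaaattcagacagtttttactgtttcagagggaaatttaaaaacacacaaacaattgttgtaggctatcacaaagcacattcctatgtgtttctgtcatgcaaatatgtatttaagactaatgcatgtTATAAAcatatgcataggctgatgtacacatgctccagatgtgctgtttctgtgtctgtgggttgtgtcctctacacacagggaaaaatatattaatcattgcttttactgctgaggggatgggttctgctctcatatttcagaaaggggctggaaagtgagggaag
Col5a3: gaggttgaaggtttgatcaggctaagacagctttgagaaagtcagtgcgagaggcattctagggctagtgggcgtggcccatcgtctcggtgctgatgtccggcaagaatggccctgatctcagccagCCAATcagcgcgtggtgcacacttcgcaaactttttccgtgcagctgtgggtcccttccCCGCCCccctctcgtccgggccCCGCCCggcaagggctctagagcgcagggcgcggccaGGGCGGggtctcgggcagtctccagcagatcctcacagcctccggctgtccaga
Col11a2: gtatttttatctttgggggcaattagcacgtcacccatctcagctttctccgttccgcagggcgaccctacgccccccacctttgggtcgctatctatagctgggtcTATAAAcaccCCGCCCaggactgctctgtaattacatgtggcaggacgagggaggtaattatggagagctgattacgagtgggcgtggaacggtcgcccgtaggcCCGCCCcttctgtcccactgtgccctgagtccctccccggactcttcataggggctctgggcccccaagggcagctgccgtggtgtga

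In the Col4a1 and Col4a2 windows the GC box just downstream of each start is the same 6 bases, at positions 11312812 to 11312817 of chromosome 8. Neither window of the pair holds the TATA letters, whereas those of Col3a1 and Col11a2 each hold them 1 time, 117 and 143 bases before the start. Of all 32851 promoter windows in the table, 13.6% held the TATA letters, 37.4% the CCAAT letters and 35.7% the GC box letters. RefSeq windows were matched to 35 of the 44 collagen genes, of which 5 held a TATA box, 13 a CCAAT box and 22 a GC box. A match is a stretch of letters and not a measured site.

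Gene counts summed to 14.7 to 20.8 M per library (M for mega). Collagen genes took 0.0481% to 0.096% of them in 13 libraries and 0.502% in 1, CVST-7d library 5. That library had the highest level in CPM (counts relative to the TMM-normalised size of the library) of all 14 for 25 of the 44 collagen genes, and for 17 of them at least 2-fold above the next library. Its summed FPKM (fragments scaled to gene length and library size, the deposited unit that allows levels of different genes to be compared) of 15 fibroblast markers was 632.7, against 136.4 to 223 in the other CVST-7d libraries, 158.8 to 242.6 in CVST-2d and 123 to 191 in sham. It was the highest library for 8 of those 15 markers, for 4 of 11 mural cell markers and for 0 of 10 endothelial markers. The fibroblast markers Dcn, Dpt, Pdgfra, Slc6a13, Slc47a1, Cemip and Aldh1a2 were each higher in another library. Its mural sum was 163.4 FPKM, against 95.9 to 162.6 in the other libraries. The 5 defining markers of cortical neurons were present in all 14 libraries, with summed FPKM of 1457.5 to 2325 in CVST-7d, 1713 to 2320 in CVST-2d and 1611.4 to 2077.8 in sham. On the first principal component of all genes, CVST-2d library 5 (-26.7) and CVST-7d library 2 (-26.9) lay next to sham library 1 (-27.3). The other sham libraries lay apart from these, at -48.2 to -47.7. Results that rest on CVST-7d library 5 are given with and without it.

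By FPKM the collagens of the sham cortex were led by Col6a1, a chain of the beaded filaments around cells (17.3 ± 4.12), Col25a1, a membrane-spanning collagen of neurons (11.8 ± 3.58), Col4a2 (10.6 ± 0.46) and Col4a1 (9.22 ± 0.396; SD, n = 4 each). In sham, 27 of the 44 genes reached a mean of 1 FPKM and 3 reached 10. Col25a1 overlapped both type IV chains in its spread, whereas Col4a2 was above Col4a1 without overlap (10.04 to 11.04 FPKM against 8.73 to 9.7 FPKM). At 2 d the leading levels were those of Col6a1 (24 ± 5.43), Col4a1 (20.8 ± 5.46) and Col4a2 (19.1 ± 4; SD, n = 5 each), which do not differ beyond their spread. At 7 d Col3a1 (66.9 ± 119), Col1a2 (52.5 ± 89.3) and Col1a1 (37.7 ± 68.3; SD, n = 5 each) had the highest means, with SDs larger than the means. Without CVST-7d library 5 their means were 13.9, 12.6 and 7.18 FPKM, below the 23.4 FPKM of Col6a1. The lowest levels in sham were those of Col6a6 (0.05 FPKM), Col4a4 (0.1) and Col4a3 (0.148).

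**Figure D1:**
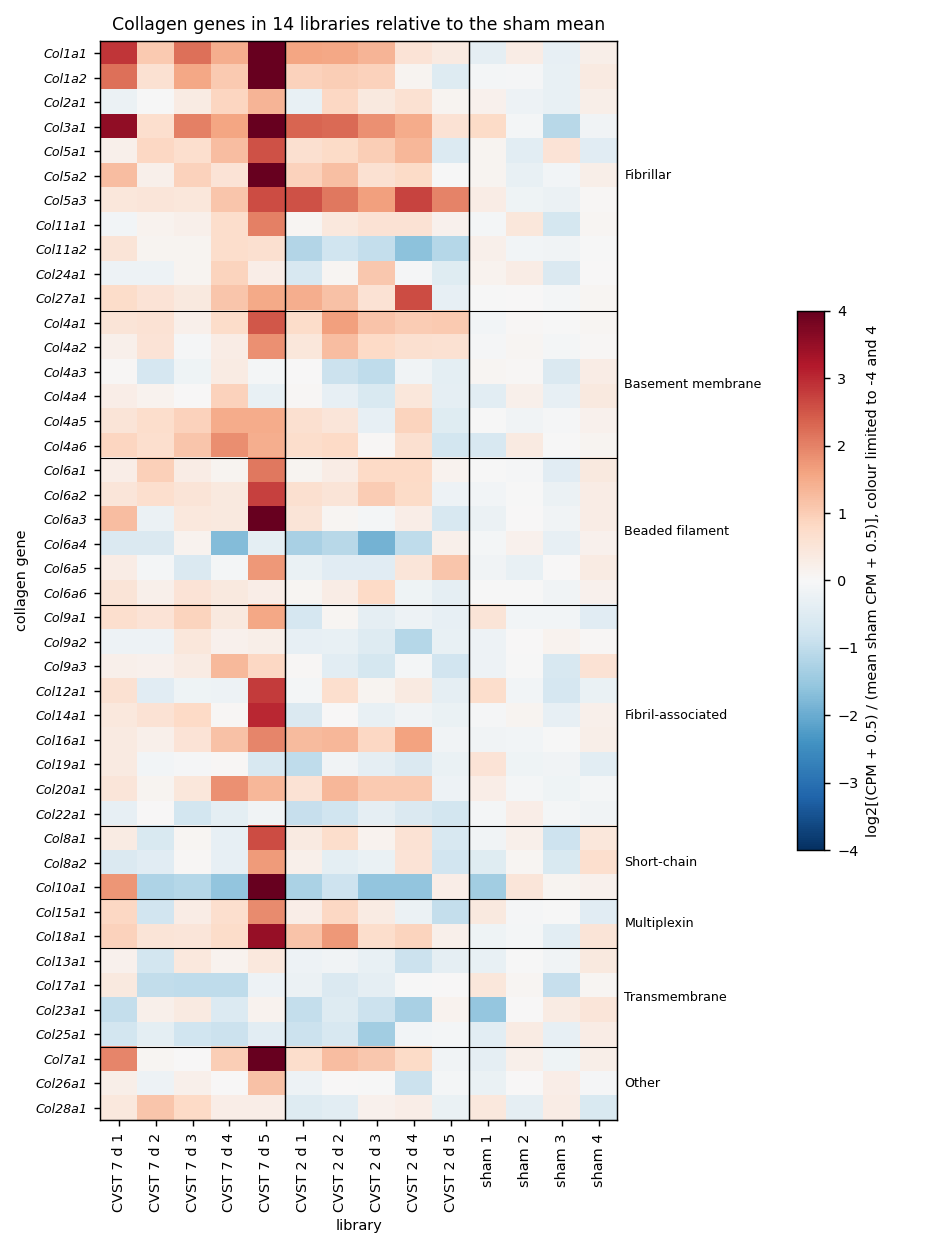
All 44 collagen genes (rows, by class) in the 14 libraries (columns, CVST-7d then CVST-2d then sham), coloured by the log2 ratio of CPM plus 0.5 to the sham mean plus 0.5, with colours limited to -4 and 4. CVST-7d library 5 is the darkest column and is the highest library for 25 genes, while Col5a3 is above sham and Col11a2 below sham in all 5 CVST-2d libraries.

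The first comparison asked which collagen genes differed at 2 d after CVST from sham. Col5a3, the alpha-3 chain of type V, which sits within and regulates fibrils, was higher, and Col11a2, a chain of the cartilage-type fibril collagen XI, was lower. No other collagen chain passed the threshold, an adjusted p under 0.05 (edgeR's quasi-likelihood test with Benjamini-Hochberg adjustment over all 16918 genes). The calls were 1 of 44 higher and 1 of 44 lower, against 2.98% of all genes tested called higher and 0.969% called lower, so that the count is near the background. At an unadjusted p under 0.05, 6 collagen genes were higher and 4 lower, against 12.3% and 9.38% of all genes, again near the background.

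Col5a3 (ENSMUSG00000004098) had 18.7, 13.6, 9.74, 20.6 and 12.3 CPM in CVST-2d, against 3.47, 2.42, 2.3 and 2.85 CPM in sham. The groups did not overlap, and CVST-2d library 5, which lay next to sham library 1 on the first principal component, was among the raised libraries. The log2 fold change was 2.44 ± 0.47 (SE, adjusted p = 0.0154 by edgeR). The call ended without sham library 2 (adjusted p = 0.0668), 3 (0.0675) or 4 (0.0574). At 7 d Col5a3 had 3.97, 4.11, 3.95, 6.58 and 19.6 CPM, every library above sham, with a log2 fold change over sham of 1.48 ± 0.46 (SE, adjusted p = 0.0875 by edgeR). Between CVST-7d and CVST-2d its log2 fold change was -0.96 ± 0.40 (SE, adjusted p = 0.188 by edgeR). Without CVST-7d library 5, a drop of 1.68 ± 0.24 on the log2 scale was called (SE, adjusted p = 0.00837). Aldh1a2, a retinoic acid enzyme of meningeal fibroblasts, was higher in CVST-2d as well, the only 1 of 14 tested fibroblast markers that edgeR called there. It had 23.4, 17.2, 21.6, 23.7 and 27.2 CPM in CVST-2d, against 7.76, 10.5, 8.7 and 10.4 CPM in sham (log2 fold change 1.27 ± 0.24, SE, adjusted p = 0.0148 by edgeR). The list as a whole was mixed, with 8 of 14 markers positive, 6 negative and a median of 0.13 on the log2 scale. Its lowest values were those of Fmod (-1.47), Ogn (-1.05) and Igf2 (-0.97), and DESeq2 called 1 marker higher and 2 lower. Over all genes, edgeR called 2.98% higher and 0.969% lower at 2 d, and DESeq2 called 6.35% and 2.69%. The part of fibroblasts in the level of Col5a3 was not tested.

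Col11a2 (ENSMUSG00000024330) moved in the opposite direction. It had 10.3, 13.4, 12, 7.31 and 10.6 CPM in CVST-2d, against 27.6, 22, 21.6 and 23.7 CPM in sham. The groups did not overlap, and Col11a2 fell by 1.15 ± 0.17 on the log2 scale (SE, adjusted p = 0.00627 by edgeR). At 7 d its 34, 25.6, 25.4, 39.3 and 37.1 CPM were all above every CVST-2d library, and 3 of the 5 were above every sham library. Col11a2 was higher in CVST-7d than in CVST-2d, by 1.59 ± 0.16 on the log2 scale (SE, adjusted p = 0.00168 by edgeR), whereas CVST-7d was not called against sham (0.45 ± 0.17, adjusted p = 0.155). CVST-7d library 5 was not the highest library for this gene, and without it the rise was 1.54 ± 0.17 (SE, adjusted p = 0.00403). Col11a2 was called between CVST-7d and CVST-2d under all 26 alternative settings, and between CVST-2d and sham under 24 of 26. The exceptions were the fits of log2 FPKM with a pseudocount of 0.1 or 1 (adjusted p = 0.105 and 0.102).

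CPM groups that did not overlap were found between CVST-2d and sham for 4 higher genes (Col5a3, Col1a1, Col4a1 and Col4a2) and 3 lower genes (Col11a2, Col9a2 and Col22a1). Among all genes 5.65% were higher without overlap and 3.06% lower. These 7 genes are named because of this count, after their values were seen. Col22a1, a fibril-associated collagen of tissue junctions, had 1.48, 1.64, 2.42, 1.98 and 1.74 CPM in CVST-2d and 3.06, 3.93, 3.05 and 2.85 CPM in sham (log2 fold change -0.80 ± 0.21, SE, adjusted p = 0.0514 by edgeR). For Col9a2 the value was -0.53 ± 0.21 (SE, adjusted p = 0.153). By class, 10 of 11 fibrillar genes had a positive fold change between CVST-2d and sham (median 0.76 on the log2 scale), as did 4 of 6 type IV genes (median 0.42) and 12 of 27 others (median -0.19). The median over all genes tested was -0.01.

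**Figure D2:**
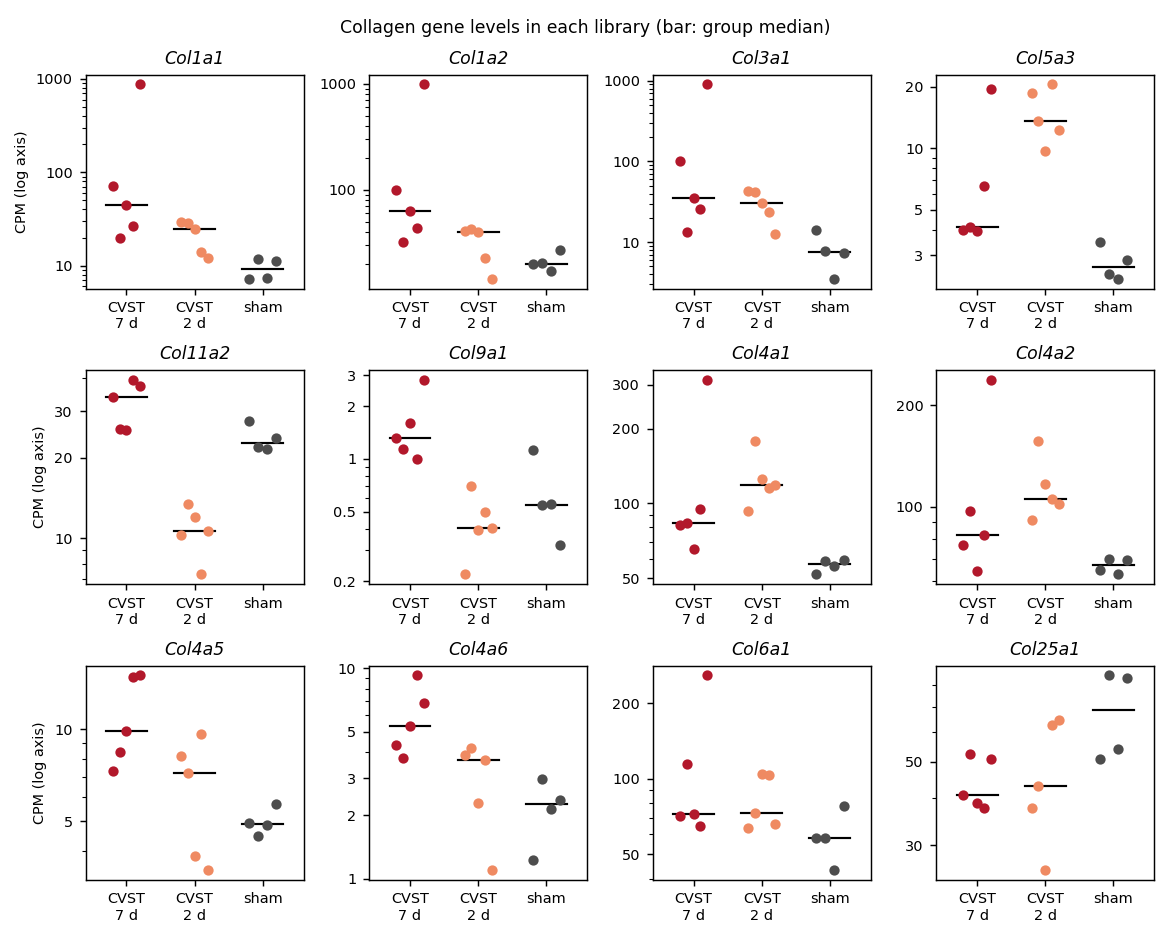
CPM on log axes of 12 collagen genes, 1 point per library (5 CVST-7d, 5 CVST-2d, 4 sham), with bars at group medians. Col5a3 is above sham in every CVST-2d library and Col11a2 below it, Col4a1 and Col4a2 are above sham in every CVST-2d library, and the highest CVST-7d point of Col1a1, Col1a2, Col3a1, Col4a1, Col4a2 and Col6a1 is library 5.

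Col4a1 and Col4a2, whose chains form the ubiquitous type IV network, were above every sham library in all 5 CVST-2d libraries without passing the adjusted threshold. Col4a1 (ENSMUSG00000031502) had 93.3, 178, 125, 115 and 118 CPM in CVST-2d and 51.8, 58.5, 55.8 and 59.1 CPM in sham. Its log2 fold change was 1.16 ± 0.39 (SE, adjusted p = 0.103 by edgeR). Col4a2 (ENSMUSG00000031503) had 91.2, 157, 117, 105 and 102 CPM in CVST-2d and 64.8, 69.8, 62.9 and 69.5 CPM in sham (0.78 ± 0.31, SE, adjusted p = 0.164). In both genes CVST-2d library 2 was the highest of its group. Leaving out CVST-7d library 5, which enters the shared spread but neither of these groups, gave adjusted p of 0.00352 for Col4a1 and 0.012 for Col4a2. With CVST-2d and sham libraries alone the values were 0.00541 and 0.0151. That fit also called Col1a1 (0.041) and Col3a1 (0.0314) at 2 d, whereas the same kind of fit ended the calls of Col1a1, Col1a2 and Col3a1 at 7 d, as given with those genes.

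At 7 d Col4a1 had 81.5, 83.7, 65.4, 94.8 and 314 CPM, all above sham (1.19 ± 0.39, SE, adjusted p = 0.101 by edgeR). Without CVST-7d library 5 the log2 fold change over sham was 0.53 ± 0.16 (SE, adjusted p = 0.113). Col4a2 had 76.7, 96.9, 64.3, 82.6 and 238 CPM at 7 d, of which 4 were above every sham library (0.74 ± 0.31, SE, adjusted p = 0.198). Without library 5 its log2 fold change was 0.26 ± 0.15 (SE, adjusted p = 0.418). Between CVST-7d and CVST-2d, the remaining 4 CVST-7d libraries gave -0.63 ± 0.16 for Col4a1 and -0.52 ± 0.15 for Col4a2 (SE, adjusted p = 0.0519 and 0.0762). The ratio of Col4a1 to Col4a2 counts was 0.863 to 1.32 in CVST-7d, 1.02 to 1.15 in CVST-2d and 0.8 to 0.888 in sham, so that CVST-2d and sham did not overlap. This ratio was noticed in the data and is given as a description. In the GENCODE annotation of GRCm38 the 2 genes overlap on opposite strands, and the counting is not stated to use strand, so reads in the overlap cannot be assigned to either. Among endothelial markers, Pecam1 and Cdh5 were higher in CVST-2d than in sham (1.02 ± 0.20, adjusted p = 0.0179, and 0.98 ± 0.23, adjusted p = 0.0338; SE, edgeR). Of all genes tested, 2.98% were called higher at 2 d. The summed FPKM of the 10 endothelial markers was 89.7 to 151.2 in CVST-2d and 73.6 to 95 in sham. The other 8 were not called; Slco1a4 (-0.38), Abcb1a (-0.13) and Ocln (-0.09) were negative, Flt1 and Kdr lay at 0.03 and 0.04, and the median of the list was 0.07. Their part in the type IV levels was not tested.

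The second comparison asked which collagen genes differed at 7 d after CVST from sham. Type I and type III collagen transcripts, the main components of scar and interstitial fibrils, rose most, and the X-linked type IV chains Col4a5 and Col4a6 rose as well. All 5 calls depend on the fit. The type I and III calls ended when CVST-7d and sham were fitted alone or when libraries were weighted by quality. Those of Col4a5 and Col4a6 ended without CVST-7d library 5. Over the alternative settings, Col1a1 was called in 15 of 25, Col1a2 in 10 of 26 and Col3a1 in 15 of 26. Col4a5 was called in 14 of 26 and Col4a6 in 12 of 26. The calls were 5 of 44 higher (11.4%) and 0 of 44 lower, against 3.61% of all genes tested called higher and 0.833% called lower. CPM groups did not overlap for 9 collagen genes, all higher in CVST-7d (Col1a1, Col1a2, Col5a3, Col27a1, Col4a1, Col4a5, Col4a6, Col6a2 and Col6a6), whereas 5.79% of all genes were higher and 3.88% lower without overlap. At an unadjusted p under 0.05, 23 collagen genes were higher and 1 was lower, against 11.7% and 7.91% of all genes, and 37 of 44 had a positive fold change, with a median of 0.94 on the log2 scale against -0.01 over all genes tested. Without CVST-7d library 5, 35 of 44 were positive, with a median of 0.49, and 3 were called higher, against 2% of all genes. By class and with all libraries, 11 of 11 fibrillar genes were positive (median 1.37, 3 called), 5 of 6 type IV genes (0.94, 2 called) and 21 of 27 others (0.85, 0 called). These class medians include CVST-7d library 5, without which the median over all 44 genes fell to 0.49. Class medians without that library were not computed, so a rise across each class in the remaining libraries cannot be read from them.

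Col1a1 (ENSMUSG00000001506), which encodes the alpha-1 chain of type I collagen, had 71.4, 20, 45.2, 26.9 and 877 CPM in CVST-7d, against 7.23, 11.8, 7.45 and 11.2 CPM in sham. Every CVST-7d library was above every sham library. The log2 fold change was 4.47 ± 1.07 (SE, adjusted p = 0.0309 by edgeR), and 2.12 ± 0.39 (adjusted p = 0.0191) without library 5. In CVST-2d Col1a1 had 29.3, 28.6, 24.9, 14 and 12.1 CPM, also all above sham but not called (1.21 ± 0.96, SE, adjusted p = 0.499).

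Col1a2 (ENSMUSG00000029661), its alpha-2 partner, had 100, 32.2, 62.9, 44 and 993 CPM in CVST-7d, against 20, 20.3, 17.3 and 27 CPM in sham. These groups did not overlap either. The log2 fold change was 3.54 ± 0.93 (SE, adjusted p = 0.0458 by edgeR), and 1.50 ± 0.36 (adjusted p = 0.0468) without library 5. In CVST-2d Col1a2 had 40.8, 42.5, 40.4, 22.9 and 14.5 CPM, the last below sham (0.61 ± 0.85, SE, adjusted p = 0.723). The ratio of Col1a1 to Col1a2 counts was 0.612 to 0.884 in CVST-7d, 0.613 to 0.836 in CVST-2d and 0.361 to 0.58 in sham, a description made after the values were seen.

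Col3a1 (ENSMUSG00000026043), the chain of type III collagen of elastic tissues and vessel walls, had 102, 13.2, 34.9, 25.6 and 905 CPM in CVST-7d, against 14.2, 7.69, 3.5 and 7.32 CPM in sham. Here CVST-7d library 2 lay within the sham range and the other 4 above it. The log2 fold change was 4.73 ± 1.16 (SE, adjusted p = 0.0345 by edgeR), and 2.43 ± 0.59 (adjusted p = 0.048) without library 5. In CVST-2d Col3a1 had 43.1, 41.5, 30.1, 23.7 and 12.5 CPM, with 4 of 5 libraries above sham (1.89 ± 1.05, SE, adjusted p = 0.314).

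Col4a5 (ENSMUSG00000031274) had 7.31, 8.42, 9.9, 14.8 and 15 CPM in CVST-7d, against 4.94, 4.48, 4.85 and 5.71 CPM in sham (log2 fold change 1.15 ± 0.30, SE, adjusted p = 0.0458 by edgeR). Its neighbour Col4a6 (ENSMUSG00000031273), whose RefSeq start lies 1343 bases away and which is also transcribed in the other direction, had 4.32, 3.73, 5.32, 9.25 and 6.86 CPM in CVST-7d, against 1.23, 2.97, 2.15 and 2.37 CPM in sham (1.44 ± 0.38, adjusted p = 0.0463). In neither gene did the groups overlap, and library 5 did not stand apart from its group. Without it the log2 fold changes were 1.02 and 1.38, but the calls ended (adjusted p = 0.106 and 0.0952). In CVST-2d the 2 genes had log2 fold changes over sham of 0.37 ± 0.30 and 0.48 ± 0.38 (SE, adjusted p = 0.504 and 0.497).

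With CVST-7d and sham libraries fitted alone, Col1a1, Col1a2 and Col3a1 were not called (adjusted p = 0.0747, 0.0926 and 0.0793 by edgeR) at almost the same fold changes. With voom sample quality weights, which give an atypical library less weight, their log2 fold changes were 2.54, 1.89 and 2.96 and the adjusted p 0.0616, 0.0671 and 0.0932. Both of these fits called Col4a5 and Col4a6. Robust empirical Bayes ended the call of Col1a2 (0.0543). Fits of log2 FPKM ended all 5 calls (0.0702 to 0.145 with a pseudocount of 0.1, 0.0718 to 0.149 with 1).

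All 5 calls at 7 d also ended without any 1 of the sham libraries, with adjusted p between 0.0667 and 0.138. Col1a1 was called without any 1 of the CVST-7d or CVST-2d libraries. Col3a1 was lost without CVST-2d library 3 (0.0503). Col1a2 was lost without CVST-2d library 1, 2, 3 or 4 (0.0545 to 0.0637) or CVST-7d library 4 (0.0506). Col4a5 was lost without CVST-2d library 1 (0.0555) or 2 (0.0549), or CVST-7d library 3 (0.0583) or 4 (0.118). Col4a6 was lost without CVST-2d library 1 (0.057), 3 (0.0599) or 4 (0.0562), or CVST-7d library 3 (0.0611) or 4 (0.124). With Ttr, a choroid plexus gene, as a covariate, Col1a1, Col1a2 and Col3a1 had log2 fold changes of 4.09, 3.17 and 4.37 and adjusted p of 0.112, 0.158 and 0.114, and Col4a6 was lost as well (1.57, adjusted p = 0.0617). The summed FPKM of 8 choroid plexus markers was 5.6 to 125.6 in CVST-7d, 6.9 to 517.2 in CVST-2d and 7 to 873.1 in sham.

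**Figure D3:**
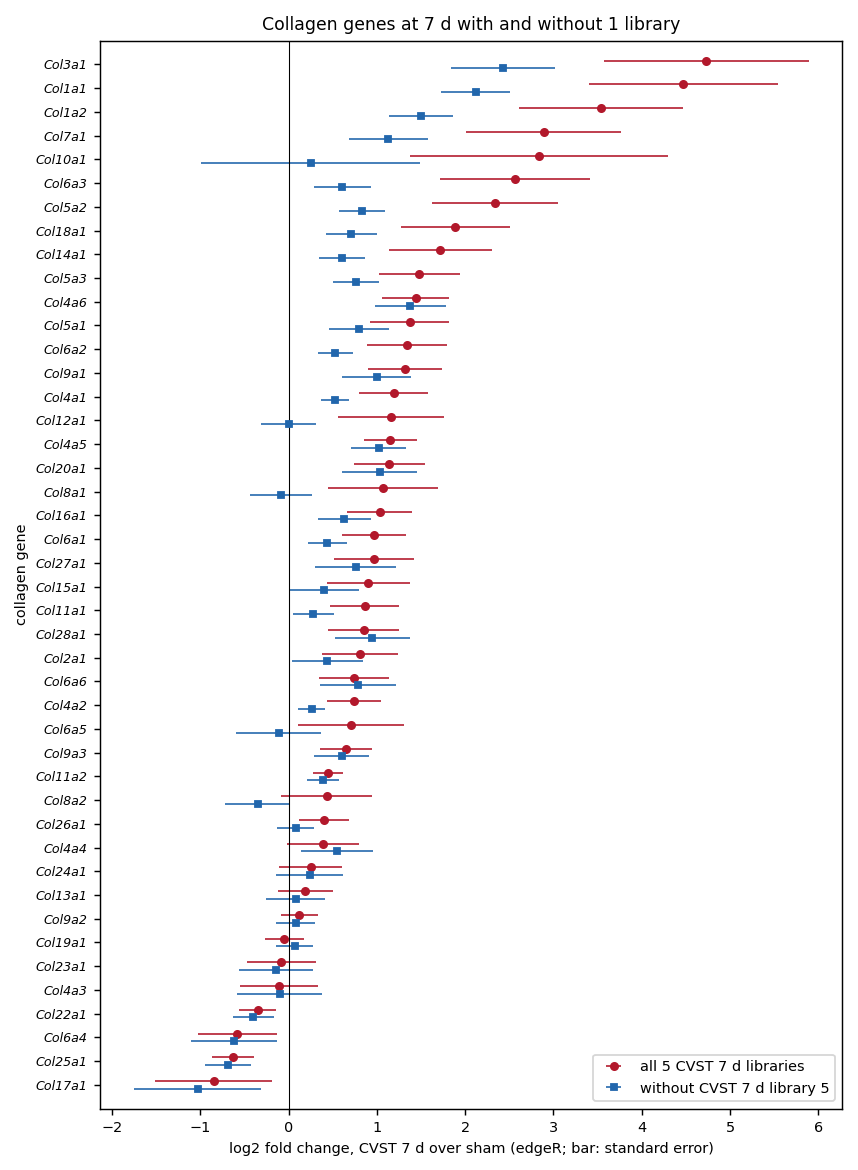
Log2 fold change of each collagen gene between CVST-7d and sham with its standard error, with all 5 CVST-7d libraries (red circles) and without library 5 (blue squares). Col1a1, Col1a2 and Col3a1 fall to 2.12, 1.50 and 2.43 without library 5, Col4a5 and Col4a6 change little, and the median over the 44 genes is 0.94 with and 0.49 without it.

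Other fibrillar genes were not called at 7 d. Col5a1, which together with Col5a2 forms the type V core of fibrils, had 26.9, 42.1, 37.8, 55.9 and 139 CPM in CVST-7d and 25.4, 17.2, 34.2 and 17 CPM in sham (1.37 ± 0.45, SE, adjusted p = 0.109 by edgeR). Col5a2 had 16.7, 7.85, 13.3, 10.2 and 122 CPM in CVST-7d and 7.29, 5.45, 6.3 and 8.02 CPM in sham (2.34 ± 0.71, SE, adjusted p = 0.0816). In both genes 4 of 5 CVST-7d libraries lay above sham, library 5 far above the others. Without library 5 the log2 fold changes of Col5a1 and Col5a2 were 0.80 and 0.83 (adjusted p = 0.256 and 0.127 by edgeR). Col27a1, a cartilage-type fibrillar collagen, was above sham in 5 of 5 CVST-7d libraries (0.97 ± 0.45, SE, adjusted p = 0.254) and in 4 of 5 CVST-2d libraries (1.49 ± 0.46, adjusted p = 0.0814). Col2a1, Col11a1 and Col24a1 had fold changes of 0.81, 0.86 and 0.25 on the log2 scale at 7 d, with adjusted p of 0.319, 0.235 and 0.748. Without library 5 these fold changes were 0.44, 0.28 and 0.24. The remaining type IV chains, Col4a3 and Col4a4, which form the network of the kidney filter, stayed at a mean of at most 0.148 FPKM in all 3 groups, with log2 fold changes of -0.11 ± 0.44 and 0.39 ± 0.41 at 7 d (SE, adjusted p = 0.923 and 0.651).

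Among the 27 other types, edgeR called 0 genes against sham at either time. Before adjustment, p was under 0.05 for 10 higher genes and 1 lower gene at 7 d and for 2 higher and 3 lower genes at 2 d, where the shares of all genes were 11.7% and 7.91%, and 12.3% and 9.38%; DESeq2 called 4 higher at 7 d, and 1 higher and 1 lower at 2 d. Over all genes, DESeq2 called 6.16% higher and 2.04% lower at 7 d, and 6.35% higher and 2.69% lower at 2 d, so that the counts at 2 d are near the background. Col6a1 and Col6a2, chains of beaded filaments, had 70.9, 114, 72.6, 64.6 and 258 CPM and 26.7, 30.5, 27.4, 24.8 and 128 CPM in CVST-7d, against 58.2, 57.8, 43.3 and 77.8 CPM and 17.4, 18.8, 16.1 and 23.3 CPM in sham. Col6a2 was above every sham library in 5 of 5 CVST-7d libraries and Col6a1 in 2 of 5. Their log2 fold changes were 0.97 ± 0.36 and 1.34 ± 0.45 (SE, adjusted p = 0.151 and 0.116 by edgeR). Without CVST-7d library 5 they were 0.44 and 0.53 (adjusted p = 0.337 and 0.195). Col6a3 was dominated by library 5, with 9.4, 3.04, 5.15, 4.96 and 85.6 CPM in CVST-7d and 3.06, 3.75, 3.3 and 4.58 CPM in sham (2.56 ± 0.85, SE, adjusted p = 0.108). Without that library the log2 fold change of Col6a3 was 0.61 (adjusted p = 0.363). Col16a1, a fibril-associated collagen, had 20.1, 17.7, 22.7, 35.2 and 61.6 CPM in CVST-7d, 38.1, 39.7, 28, 47.9 and 13.9 CPM in CVST-2d, and 13.9, 14.3, 15.3 and 18.2 CPM in sham. In CVST-2d it was above sham in 4 of 5 libraries, the exception being library 5, and its log2 fold change was 1.12 ± 0.37 (SE, adjusted p = 0.103). Without CVST-2d library 5 it was 1.32 with an adjusted p of 0.0226, and without CVST-7d library 5 1.12 with an adjusted p of 0.0401.

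Col25a1 was the most abundant collagen with negative fold changes against sham at both times. It had 40.7, 52.3, 38.8, 37.6 and 50.8 CPM in CVST-7d, 37.6, 43.2, 25.8, 62.5 and 64.4 CPM in CVST-2d, and 50.7, 84.8, 53.9 and 83.2 CPM in sham. The groups overlapped, with log2 fold changes of -0.63 ± 0.24 at 7 d and -0.54 ± 0.24 at 2 d (SE, adjusted p = 0.156 and 0.203 by edgeR). Col18a1, the basement membrane multiplexin that gives rise to endostatin, had 13.2, 9.94, 9.56, 11.5 and 80.6 CPM in CVST-7d and 5.94, 6.35, 4.9 and 9.8 CPM in sham (1.89 ± 0.62, SE, adjusted p = 0.105). Without CVST-7d library 5 its log2 fold change was 0.71 (adjusted p = 0.242). Col7a1, the anchoring fibril collagen of skin, had 10.2, 2.41, 2.29, 4.91 and 63.2 CPM in CVST-7d and 1.65, 2.66, 1.95 and 2.75 CPM in sham (2.89 ± 0.88, SE, adjusted p = 0.0795). Its log2 fold change was 1.13 without CVST-7d library 5 (adjusted p = 0.229). Col10a1, the growth plate collagen, had 4.53, 0.127, 0.172, 0 and 30.4 CPM in CVST-7d, 0.109, 0.328, 0, 0 and 1.27 CPM in CVST-2d, and 0.0588, 1.57, 1.1 and 1.18 CPM in sham. Col10a1 was not called in any comparison by edgeR. At 7 d its log2 fold change over sham was 2.84 ± 1.46 (SE, adjusted p = 0.304). It was 0.25 without CVST-7d library 5 (adjusted p = 0.947). In the GENCODE annotation 18 of the 44 collagen genes overlap a gene on the opposite strand, so their counts are uncertain. Besides Col4a1 and Col4a2, the partner is protein-coding for Col10a1 (Nt5dc1), Col18a1 (Slc19a1) and Col9a3 (Tcfl5); Col4a5, Col4a6, Col5a1, Col5a3 and Col22a1 are among those with a non-coding partner or pseudogene. The remaining other types had log2 fold changes between -0.85 (Col17a1) and 1.72 (Col14a1) at 7 d. Without CVST-7d library 5 that of Col14a1 was 0.61.

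The third comparison set CVST-7d against CVST-2d. Col11a2 and Col9a1, a chain of the fibril-associated type IX that coats cartilage fibrils containing type XI, were higher at 7 d. The calls were 2 of 44 higher and 0 lower, against 1.54% of all genes tested called higher and 1.25% called lower. Before adjustment, p was under 0.05 for 18 higher genes and 1 lower gene, against 10.3% and 10.6% of all genes. DESeq2 called 7 higher and 0 lower, against 3.89% and 3.83%. CPM groups did not overlap for 5 genes, all higher in CVST-7d: Col11a2, the 3 type IX chains Col9a1, Col9a2 and Col9a3, and Col14a1. Among all genes 2.28% were higher and 2.13% lower without overlap. These genes, too, are named after their values were seen. With all libraries 38 of the 44 fold changes were positive, with a median of 0.62 on the log2 scale. Without CVST-7d library 5, 28 were positive and 16 negative, with a median of 0.26. In that fit edgeR called 1 gene higher (Col11a2) and 1 lower (Col5a3), while 2.27% of all genes were called in either direction.

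Col9a1 (ENSMUSG00000026147) had 1.32, 1.14, 1.6, 1 and 2.83 CPM in CVST-7d, against 0.219, 0.702, 0.392, 0.495 and 0.405 CPM in CVST-2d, and sham libraries had 1.12, 0.545, 0.55 and 0.323 CPM. These are low levels, 18 to 54 counts per CVST-7d library and 4 to 15 per CVST-2d library. The log2 fold change of CVST-7d over CVST-2d was 1.81 ± 0.40 (SE, adjusted p = 0.0313 by edgeR). The call ended without CVST-2d library 1 (0.0842), 3 (0.0666) or 4 (0.0611), or CVST-7d library 3 (0.057) or 5 (0.0558). It also ended with CVST-7d and CVST-2d fitted alone (0.0544), with Ttr as a covariate (0.0615) and for log2 FPKM with a pseudocount of 1 (0.0637). Col9a2 had 5.08, 5.19, 8.3, 6.75 and 7.17 CPM in CVST-7d and 4.65, 4.82, 3.99, 2.42 and 4.8 CPM in CVST-2d (0.65 ± 0.20, SE, adjusted p = 0.0831). Col9a3 had 13.7, 13.3, 15.1, 29.6 and 21.3 CPM in CVST-7d and 12.3, 8.66, 7.06, 11.1 and 6.77 CPM in CVST-2d (1.02 ± 0.27, SE, adjusted p = 0.0601). Against sham the 3 type IX genes were not called at either time, and Col9a1 had the largest change at 7 d (1.32 ± 0.42, adjusted p = 0.0919). Of the fibroblast markers, Ogn and Fmod, small proteoglycans that bind fibrils, were higher and Aldh1a2 was lower in CVST-7d than in CVST-2d (1.41 ± 0.30, 1.96 ± 0.44 and -1.13 ± 0.22; SE, adjusted p = 0.0272, 0.0322 and 0.0178 by edgeR). Of all genes tested, 1.54% were called higher and 1.25% lower between these times. The part of these markers in the type IX and XI levels was not tested.

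Col1a1, Col1a2 and Col3a1 were not called between CVST-7d and CVST-2d with all libraries (3.26 ± 0.91, 2.94 ± 0.82 and 2.84 ± 0.95; SE, adjusted p = 0.0684, 0.0699 and 0.112 by edgeR). Without CVST-7d library 2, which lay next to sham library 1 on the first principal component, Col1a1 and Col1a2 passed (adjusted p = 0.0428 and 0.0451 by edgeR). Without CVST-7d library 5 the log2 fold changes of the 3 genes were 0.90, 0.89 and 0.53 (adjusted p = 0.161, 0.148 and 0.582). Summed over these 3 genes, FPKM was 67.6, 14.2, 29.9, 23.4 and 650.7 in CVST-7d, 22.8, 25.7, 22, 15.2 and 8 in CVST-2d, and 9.3, 8.4, 5.7 and 10.1 in sham. All CVST-7d libraries were above all sham libraries, and within CVST-2d library 5 alone fell in the sham range. The 3 genes made up 58.2% of the summed collagen FPKM in CVST-7d library 5, and 9.06% to 33.4% in the other CVST-7d libraries, 6.14% to 15% in CVST-2d and 5.53% to 8.05% in sham.

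**Figure D4:**
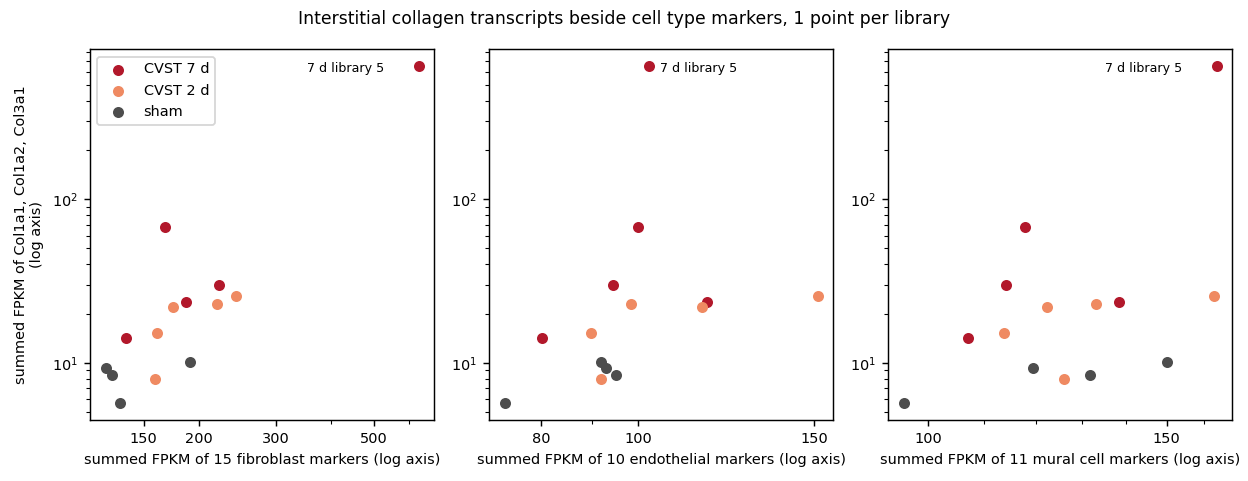
Summed FPKM of Col1a1, Col1a2 and Col3a1 against summed FPKM of 15 fibroblast, 10 endothelial and 11 mural cell markers, 1 point per library, log axes. CVST-7d library 5 has the highest collagen sum (650.7) and fibroblast sum (632.7), but an endothelial sum of 102.6, within the range of the other libraries. Its mural sum of 163.4 is the highest, close to the 162.6 of CVST-2d library 2.

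Genes that act on collagen outside the family were read from the same tests. Of 30 tested genes of collagen biosynthesis (1 further listed gene, Loxl4, had too few reads), 0 were called between CVST-2d and sham, where their median log2 fold change was 0.38. At an unadjusted p under 0.05 edgeR gave 9 higher and 1 lower, and DESeq2 called 5 higher, against 12.3%, 9.38% and 6.35% of all genes. Between CVST-7d and sham the median was 0.40, with 25 positive and 4 negative. Before adjustment, edgeR put 11 rises and 1 fall below a p of 0.05, against 11.7% and 7.91% of all genes. DESeq2 called 6 higher and 1 lower, with 6.16% and 2.04% over all genes. CVST-7d library 5 was the highest library for 20 of the 31 listed genes. After adjustment edgeR called 1 gene, with 3.61% of all genes called higher and 0.833% lower. That gene was P4ha1, a catalytic subunit of the prolyl hydroxylase that stabilises the triple helix, and it was lower, with 35.2, 36.7, 39.4, 44.7 and 51.1 CPM in CVST-7d against 55, 61.2, 55.6 and 68.8 CPM in sham. The groups did not overlap, and P4ha1 fell by 0.54 ± 0.10 on the log2 scale (SE, adjusted p = 0.0136 by edgeR), a call that ended without sham library 2 (0.0523) or 4 (0.0578). Serpinh1, the collagen chaperone HSP47, had 24.7, 12.5, 25.1, 25.8 and 114 CPM in CVST-7d, 46.8, 61.2, 41.6, 35.6 and 19.7 CPM in CVST-2d, and 15, 19.8, 17.5 and 23.3 CPM in sham. Its CVST-2d values were above sham in 4 of 5 libraries, and it was not called at 2 d (1.12 ± 0.52, SE, adjusted p = 0.226) or at 7 d (1.10 ± 0.52, adjusted p = 0.256). Without CVST-7d library 5 the change at 2 d was called (adjusted p = 0.0355). With 1 library left out, the log2 fold change of Serpinh1 at 7 d ranged from 0.22 to 1.35 (adjusted p 0.122 to 0.763). Lox, the enzyme that cross-links fibrils, had 6.89, 1.27, 3.26, 3.29 and 46.9 CPM in CVST-7d and 3.88, 1.27, 0.8 and 1.78 CPM in sham (2.69 ± 0.89, SE, adjusted p = 0.107). Without CVST-7d library 2 it was called (0.0437). With 1 library left out, its log2 fold change ranged from 0.93 to 3.29 (adjusted p 0.0437 to 0.373).

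Of 9 tested collagen receptors, 1 was called higher between CVST-2d and sham and 3 between CVST-7d and sham. Among all genes 2.98% and 3.61% were called higher. At an unadjusted p under 0.05, 5 receptors were higher at 2 d and 8 at 7 d, against 12.3% and 11.7% of all genes. Lair1, an inhibitory collagen receptor of immune cells, had 13.9, 7.78, 11.3, 23.6 and 22.8 CPM in CVST-7d, against 4.41, 4.42, 3.65 and 4.68 CPM in sham. All CVST-7d libraries were above sham, by 1.89 ± 0.29 on the log2 scale (SE, adjusted p = 0.00666 by edgeR), and Lair1 was called under all 26 alternatives. At 2 d it was 1.05 ± 0.29 (SE, adjusted p = 0.0575), and it passed without CVST-2d library 5 (0.0336) or without CVST-7d library 2 (0.0247), 4 (0.0474) or 5 (0.0396). In the same comparison of CVST-7d with sham, 3 of 7 macrophage markers and 4 of 6 microglia markers were called higher, against 3.61% of all genes. The summed FPKM of the macrophage and microglia markers was 2.3 to 39.4 and 165.9 to 472.6 in CVST-7d, against 2.1 to 2.3 and 120.6 to 136.5 in sham. Their part in the level of Lair1 was not tested. Ddr2, a receptor tyrosine kinase for fibrillar collagen, had 17.3, 14.1, 15.7, 20.8 and 21.8 CPM in CVST-7d, against 10.2, 11.8, 10.8 and 11.8 CPM in sham (0.68 ± 0.15, SE, adjusted p = 0.0236). All CVST-7d libraries were above sham, but the call ended without any 1 of the sham libraries (0.0633 to 0.0846) or without CVST-7d library 4 (0.0644) or 5 (0.0547). Ddr2 was also higher in CVST-7d than in CVST-2d (0.65 ± 0.14, SE, adjusted p = 0.031), a call that ended without CVST-2d library 1, 3 or 4 or CVST-7d library 1, 4 or 5 (0.0545 to 0.0863). Itga2, a collagen-binding integrin subunit, lay at 0.253 to 1.06 CPM in CVST-7d, 0.347 to 1.12 CPM in CVST-2d and 0 to 0.108 CPM in sham. It was called higher at 7 d (adjusted p = 0.0225) and at 2 d (0.0268), but not without any 1 of the sham libraries (0.0561 to 0.0699 at 7 d, 0.0595 to 0.0924 at 2 d), without CVST-7d library 4 at 7 d (0.0577) or without CVST-2d library 2 (0.0623) or 4 (0.0534) at 2 d. Its fold change is left out because 2 of the 4 sham libraries were at 0.

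Of 16 partners of type IV collagen in basement membranes, 0 were called between CVST-2d and sham (median log2 fold change 0.21) and 2 were higher between CVST-7d and sham (median 0.45). Among all genes 3.61% were called higher at 7 d. CVST-7d library 5 was the highest library for 11 of the 16 partners. Their summed FPKM was 611.5 in that library and at most 353.8 in the other CVST-7d libraries. At 2 d an unadjusted p under 0.05 was reached by 4 higher and 2 lower genes and DESeq2 called 1 lower, against 12.3%, 9.38% and 2.69% of all genes. At 7 d it was reached by 9 higher and 0 lower genes and DESeq2 called 5 higher, against 11.7%, 7.91% and 6.16%. Lama2, the laminin chain of the vascular and glial basement membrane, had 17.5, 19, 17.2, 19.8 and 21.8 CPM in CVST-7d, 10.9, 12.3, 9.81, 9.35 and 11.5 CPM in CVST-2d, and 12.6, 14.2, 11 and 12.3 CPM in sham. CVST-7d libraries were above all others, by 0.61 ± 0.11 over sham (SE, adjusted p = 0.0117 by edgeR) and 0.82 ± 0.11 over CVST-2d (adjusted p = 0.00314). The call against sham ended without sham library 3 (0.0572). Nid1, nidogen-1, which links laminin to type IV collagen, had 24.2, 13.9, 22.3, 27.7 and 72 CPM in CVST-7d, against 10, 13.5, 8.15 and 11.6 CPM in sham (1.57 ± 0.39, SE, adjusted p = 0.0359). The groups did not overlap. The call ended without any 1 of the sham libraries (0.0778 to 0.121), CVST-2d library 1 (0.0513) or 3 (0.0524) or CVST-7d library 4 (0.068). CVST-7d library 5 was the highest library for Nid1. With 1 library left out, the log2 fold change of Nid1 ranged from 1.03 to 1.77. Lama3 was higher in CVST-7d than in CVST-2d (0.72 ± 0.18, SE, adjusted p = 0.0445), a call that ended under every removal of a single library except sham library 4 or CVST-2d library 2 or 5 (0.0542 to 0.123). Fn1, fibronectin, had 121, 81.8, 120, 184 and 630 CPM in CVST-7d and 74.5, 65.3, 62.6 and 74.3 CPM in sham, without overlap (1.72 ± 0.51, SE, adjusted p = 0.0747). Without CVST-7d library 2, Fn1 was called (0.0314). With 1 library left out, its log2 fold change ranged from 0.87 to 1.95 (adjusted p 0.0314 to 0.191). Sparc, a collagen-binding matricellular protein, was at 0.75 ± 0.26 on the log2 scale over sham at 7 d and did not pass the threshold (SE, adjusted p = 0.117). It had 269, 300, 268, 392 and 652 CPM in CVST-7d and 164, 218, 200 and 314 CPM in sham. With 1 library left out, the log2 fold change of Sparc ranged from 0.46 to 0.96. Fits other than those that leave out a library also ended calls of genes outside the family. At 7 d, Nid1 was lost with CVST-7d and sham fitted alone (0.0721) and Nid1 and Ddr2 with Ttr as a covariate (0.105 and 0.063). For log2 FPKM with a pseudocount of 0.1, P4ha1 (0.0572), Itga2 (0.0719), Ddr2 (0.192), Lama2 (0.156) and Nid1 (0.0989) were not called against sham. Between CVST-7d and CVST-2d, Ddr2 and Lama3 were lost with these groups fitted alone (0.0847 and 0.0843), with Ttr (0.0615 and 0.0724) and for log2 FPKM (0.155 and 0.123 with a pseudocount of 0.1).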

How the data were processed

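Whole-number read counts and FPKM values, each per gene, were deposited for 14 libraries of mouse cortex. Per the submitters' processing notes, fastp, HISAT2 and DESeq2 1.16.1 were used with build mm39; for the counting tool, strand setting and annotation the sources used here say nothing. Of 55894 rows, 535 without an Ensembl gene (0.203% to 0.278% of counts per library) were left out.

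The deposited counts of all 14 libraries (14.7 to 20.8 M) entered 1 fit in edgeR 4.0.16 (R 4.3.3), with TMM scaling (factors 0.962 to 1.04), the filterByExpr filter and quasi-likelihood tests. P-values were adjusted by Benjamini-Hochberg over 16918 genes, with calls under 0.05. The SE of a log2 fold change is its size divided by the square root of the F statistic. The fit was tested on simulated data. Library values are CPM with TMM factors. The deposited FPKM serves only for levels between genes and for sums, because within a gene it departed from proportion to the counts: the largest departure per gene had a median of 16.7% and a maximum of 95.5% over 28 collagens.

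DESeq2 1.42.0, limma 3.58.1, other filters, covariates and the removal of each library were alternatives. Replicates of a group differed by more than sampling noise (chi-square per degree of freedom at least 8.27). The members, lists, tests and alternatives were chosen with earlier results of these data known. Genes are named that were called, that led their class by FPKM, or that changed most; Col1a1, Col1a2, Col3a1, Col4a1, Col4a2 and, outside the family, called genes with Serpinh1, Lox, Fn1 and Sparc are named in any case. Promoter windows are RefSeq entries of GRCm38.p6; coordinates of mm39 are not used here.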

Additional observations from a re-analysis of the deposited data

Results flagged for a closer look

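Of 48 groups tested (16 named collagen genes in 3 groups), 11 held a library far from the others by Dixon's criterion. That is the gap to the nearest library divided by the group's range. Chance flags about 1 in 20 independent groups, or 2.4. The genes were named partly for these same values and share their libraries, so the count cannot be set against that number. In 10 of the 11 the library was CVST-7d library 5, the highest of its group for Col6a2 (0.944), Col1a1 (0.94), Col1a2 (0.929), Col3a1 (0.901), Col4a1 (0.882), Col10a1 (0.851), Col5a3 (0.832), Col4a2 (0.812), Col6a1 (0.745) and Col5a1 (0.741). CVST-2d library 5 was the highest of its group for Col10a1 (0.742). The fibroblast marker sum of CVST-7d library 5 is given in the report, and its part in these values was not tested.

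The change from sham differed between 7 d and 2 d for Col11a2 (by 1.59 on the log2 scale) and Col9a1 (by 1.81). Since both times share the sham libraries, this is the same test as that of CVST-7d against CVST-2d.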

How the results depend on the processing

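Of 44 collagen genes, 5 were called higher between CVST-7d and sham, 1 higher and 1 lower between CVST-2d and sham, and 2 higher between CVST-7d and CVST-2d. DESeq2 called 9 at 7 d, 3 higher and 2 lower at 2 d and 7 between the times; it gave no adjusted p for Col1a1, Col5a2 and Col6a3. Libraries of only the 2 groups compared gave 3, 5 and 1 higher in the same order; the 3 at 7 d were Col27a1, Col4a5 and Col4a6, without Col1a1, Col1a2 and Col3a1 (adjusted p = 0.0747, 0.0926 and 0.0793). Voom with sample weights gave 3 higher at 7 d (Col4a5, Col4a6 and Col9a1, without the same 3 genes), 5 higher and 4 lower at 2 d, and 1 lower between the times. Log2 FPKM with a pseudocount of 0.1 gave 0 at 7 d. With a pseudocount of 1 it gave 0 at 7 d, 0 lower at 2 d and 1 higher between the times. Ttr as a covariate gave 2 at 7 d. Without CVST-2d library 5 and CVST-7d library 2 together, 10 were higher at 7 d, and 4 higher and 3 lower at 2 d. Leaving out 1 library at a time gave 0 to 8 higher at 7 d, 0 to 5 higher and 1 to 3 lower at 2 d, and 1 to 4 higher and 0 to 1 lower between the times. The 0 counts at 7 d and at 2 d came from leaving out a sham library. The cause was not tested.

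Same-numbered libraries mostly did not deviate together (correlations -0.438 to 0.28). Between CVST-7d and sham, libraries 1 and 3 were most alike to the sham library of the same number (0.28 and 0.199). The labels do not say what a shared number means, and whether it marks a batch was not tested. With the replicate block, 0 genes were called at 7 d and 1 between the times; of the named genes at 7 d, Col10a1 changed sign to -0.74, and Col4a1 between the times to -0.24.

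Signs also turned for uncalled values. Col10a1 at 7 d was -0.88 with voom weights. Between the times, Col4a1 was -0.59 with voom weights, -0.16 and -0.15 with FPKM pseudocounts of 0.1 and 1, -0.08 with Ttr, and -0.63 to 0.19 with 1 library left out; Lox and Fn1 were -0.25 and -0.17 with voom weights. With 1 library left out, Col4a2 ranged from -0.52 to 0.11, Col6a1 from -0.03 to 0.66, Col6a2 from -0.08 to 0.88, Lox from -0.34 to 1.72 and Fn1 from -0.28 to 0.87.

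Over all genes, the counts of 611 higher and 141 lower at 7 d ranged from 55 to 1141 and from 18 to 344 over the alternatives, those of 505 and 164 at 2 d from 60 to 1420 and from 16 to 1196, and those of 261 and 212 between the times from 55 to 645 and from 26 to 705. Few reads limit Col4a3, Col4a4, Col6a6, Col9a1, Col10a1 and Col17a1.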
